A study of Mus musculus with 12 samples.

Results

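The integrated and mitochondrial stress response was followed through 10 mouse genes of the ATF4 pathway, Atf4, Atf5, Ddit3, Trib3, Asns, Chac1, Mthfd2, Psat1, Shmt2 and Sesn2. They were chosen by symbol as genes that a block of the respiratory chain is known to induce, and all 10 were found among the 43346 genes of the deposited table. RNA had been sequenced from 12 brain libraries in 3 groups of 4. Old_CP2 libraries came from mice of 23 months that had been given CP2, an inhibitor of mitochondrial complex I, at 25 mg/kg/day in drinking water with 0.1% PEG from the age of 9 months. Old libraries came from mice of 23 months given water with 0.1% PEG alone from the same age, and Young libraries from untreated mice of 3 months. All 3 groups are labelled wild type and titled NTG (non-transgenic), with the strain given as C57BL/6;SJL-Tg for Old_CP2 and Old and as C57BL/6 for Young. In contrast, the series' own design note calls the CP2-treated and untreated mice APP/PS1. The sample labels were followed here. Age, strain label and vehicle therefore differ together between Young and both other groups and cannot be told apart. The tissue was a cross-section of brain with hippocampus and cortex. The labels do not say that each library came from its own animal. The p-values therefore judge differences between groups against the spread between these libraries, part of which may be technical.

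The integrated stress response is a shared answer to several kinds of cell stress. Kinases that sense amino acid shortage, unfolded protein, haem shortage or viral RNA phosphorylate the translation factor eIF2, which lowers protein synthesis in general and raises translation of the transcription factor ATF4. ATF4 then switches on genes of amino acid synthesis, transport and tRNA charging. Trouble in mitochondria reaches the same pathway, in mammalian cells through the protease OMA1, the messenger protein DELE1 and the kinase HRI, encoded by Eif2ak1. Because ATF4 and ATF5 are controlled largely in translation, the levels of their transcripts do not measure the amount of protein, and transcripts of ATF4 target genes are the usual readout in RNA data.

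ATF4 binds, with a C/EBP partner, a composite element whose core was searched as TGATGNAA, with its reverse complement TTNCATCA, in the 250 bases upstream of RefSeq transcript starts (GRCm38.p6). It was present for 2 of the 10 genes, Asns and Chac1, against 1056 of 27025 genes (3.91%) with a promoter in that table. These 2 stretches are shown because they hold the letters of the core, and whether ATF4 binds them was not measured. They are written 5′ to 3′ on the strand that carries the core, with the core in capitals.
Asns: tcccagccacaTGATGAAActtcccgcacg
Chac1: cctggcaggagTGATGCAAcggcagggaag
The Asns stretch lies at chr6:7693214-7693243 on the minus strand, the strand of the gene, and its core spans bases 23 to 16 upstream of the RefSeq start. That is within the span of Asns in the deposited table, which ends at 7693254. The Chac1 stretch lies at chr2:119351038-119351067 and is read from the minus strand, opposite to the gene, with the core 193 to 186 bases upstream. The letters were not found in the windows of the other 8 genes, which describes those windows only.

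Library totals ran from 78021395 to 99449665 counts in Old_CP2, from 70548781 to 94741585 in Old and from 77469073 to 91549618 in Young. Values below are normalised CPM, counts scaled to a fixed library total, and 1 CPM stood for 68.0 to 98.2 counts. Summed neuron markers were at 5270 to 5817 CPM in Old_CP2, 4688 to 5441 CPM in Old and 5007 to 5443 CPM in Young, and each of these markers was present in all 12 libraries. Of these 7 markers, edgeR called 1 higher and 1 lower in Old against Young at an adjusted p under 0.05. In Old_CP2 against Young it called 1 higher, and in Old_CP2 against Old 0. The make-up of the sections differed between groups, however. Choroid plexus markers summed to 22.5 to 818 CPM in Old_CP2, 26.4 to 953 CPM in Old and 1194 to 1931 CPM in Young, and markers of midbrain and hindbrain neurons to 18.3 to 70.0 CPM, 26.6 to 89.3 CPM and 3.16 to 4.35 CPM in the same order of groups. Striatal neuron markers summed to 101 to 142 CPM in Old_CP2, 107 to 141 CPM in Old and 182 to 304 CPM in Young. Red blood cell transcripts summed to 228 to 443 CPM in Old_CP2, 81.6 to 148 CPM in Old and 59.2 to 91.0 CPM in Young. Astrocyte markers summed to 1922 to 2156 CPM in Old_CP2, 2253 to 2372 CPM in Old and 1894 to 2097 CPM in Young. Microglia markers summed to 323 to 372 CPM in Old_CP2, 328 to 353 CPM in Old and 237 to 300 CPM in Young. Markers of oligodendrocyte precursors summed to 145 to 165 CPM, 146 to 174 CPM and 179 to 189 CPM in the same order of groups. The part of these differences in the results below was not tested except where a covariate is named. In such bulk tissue, fewer cells of a type and less RNA per cell cannot be told apart.

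None of the 10 transcripts was called in any of the 3 comparisons. In Old_CP2 against Old, edgeR called 0 of the 10 at an adjusted p under 0.05, with 0 at an unadjusted p under 0.05, and DESeq2 and limma voom also called 0. Over all 22553 genes tested, 10 were called, or 0.0443%. Between Old and Young, all 3 tools called 0 of the 10, with 1 at an unadjusted p under 0.05 in edgeR, where 1511 genes or 6.7% of all were called. Between Old_CP2 and Young they called 0 of the 10, with 0 at an unadjusted p under 0.05, where 1707 genes or 7.57% were called. The median log2 fold change of the 10 was 0.05 in Old_CP2 against Old, with 6 above 0 and 4 below, and the median of all genes was 0.0017. It was -0.02 in Old against Young, with 4 above 0 and 6 below, and -0.0034 for all genes. It was 0.02 in Old_CP2 against Young, with 7 above 0 and 3 below, and -0.0076 for all genes. The comparisons share groups and are not independent of each other.

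**Figure D1:**
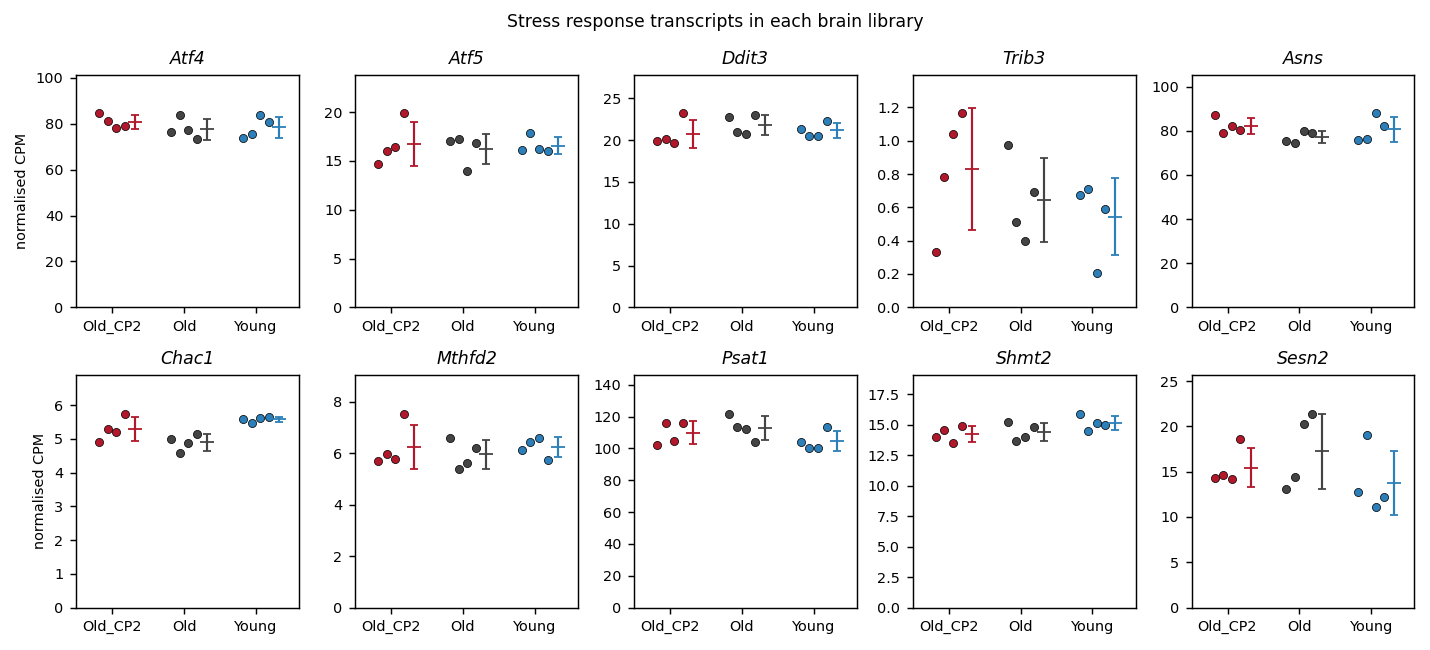
Normalised CPM (vertical axes from 0, each panel on its own scale) of the 10 transcripts in the 4 libraries of Old_CP2, Old and Young, as points, with the mean and SD to the right of each group. The values of Old_CP2 and Old overlap in every panel, and only Chac1 separates Old from Young.

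Among the transcription factors, Atf4 (ENSMUSG00000042406, chromosome 15, 80255184 to 80257540, mm10), the central regulator of the pathway, was at 84.6, 81.4, 78.1 and 78.8 CPM in Old_CP2, at 76.3, 84.0, 77.1 and 73.2 CPM in Old, and at 73.8, 75.4, 83.9 and 80.6 CPM in Young. The 3 groups overlapped throughout, with 1.16-fold between the highest and the lowest of the 12 libraries. Its log2 fold change was 0.06 in Old_CP2 against Old (95% interval -0.06 to 0.17, edgeR adjusted p = 0.891), which spans 0.959-fold to 1.13-fold. In Old against Young it was -0.01 (-0.13 to 0.10), and it was above 0 without Young 4 (0.03), Young 5 (0.01) or Old 10 (0.02).

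Atf5 (ENSMUSG00000038539, chromosome 7, 44812257 to 44816658), a related factor that in mammalian cells takes part in the mitochondrial unfolded protein response, was at 14.7, 16.0, 16.4 and 19.9 CPM in Old_CP2. It was at 17.0, 17.2, 13.9 and 16.9 CPM in Old and at 16.2, 17.9, 16.2 and 16.1 CPM in Young. Old_CP2 15 was the highest of the 12 and Old 9 the lowest, and the groups overlapped in each comparison. The log2 fold change in Old_CP2 against Old was 0.04 (-0.16 to 0.24, edgeR adjusted p = 0.955), and it was below 0 without Old 9 (-0.03) or Old_CP2 15 (-0.05). In Old against Young it was -0.03, and above 0 without Young 3 (0.02) or Old 9 (0.05), and in Old_CP2 against Young 0.01, and below 0 without Old_CP2 15 (-0.07). Atf5 shares 571 bases of its span with the gene model of Nup62, at 2134 to 3171 counts, and 289 with Il4i1. The kit does not mark strand, so reads from shared stretches cannot be assigned by strand.

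Ddit3 (ENSMUSG00000025408, chromosome 10, 127290774 to 127296288) encodes CHOP, the factor tied to cell death under lasting stress. It was at 19.9, 20.2, 19.6 and 23.2 CPM in Old_CP2, at 22.7, 21.0, 20.7 and 23.0 CPM in Old, and at 21.3, 20.6, 20.5 and 22.3 CPM in Young. In Old_CP2, 3 of 4 libraries were below all 4 Old libraries, while Old_CP2 15 was the highest of the 12. Its log2 fold change was -0.08 in Old_CP2 against Old (-0.21 to 0.06, edgeR adjusted p = 0.878), 0.05 in Old against Young and -0.03 in Old_CP2 against Young, which was above 0 (0.00086) without Young 5. Ddit3 overlaps the tRNA synthetase gene Mars on the other strand by 68 bases.

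Trib3 (ENSMUSG00000032715, chromosome 2, 152337422 to 152344032), a pseudokinase that ATF4 and CHOP induce and that restrains them in return, was the scarcest of the 10, with 16 to 96 counts per library. It was at 0.333, 0.784, 1.04 and 1.16 CPM in Old_CP2, at 0.973, 0.515, 0.397 and 0.691 CPM in Old, and at 0.673, 0.708, 0.204 and 0.591 CPM in Young. Old_CP2 held both the highest 2 values and the lowest but one, and the groups overlapped. Its difference was the least well measured, at a log2 fold change of 0.36 in Old_CP2 against Old (-0.54 to 1.25, edgeR adjusted p = 0.912), or 0.688-fold to 2.38-fold. In Old_CP2 against Young it was 0.60 (-0.30 to 1.504, adjusted p = 0.427), and in Old against Young 0.25 (-0.67 to 1.16), where it was below 0 without Young 4 (-0.01) or Old 7 (-0.02). In each comparison the interval of Trib3 held both no difference and a 2-fold rise.

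Among the enzymes of amino acid supply, Asns (ENSMUSG00000029752, chromosome 6, 7675169 to 7693254), which makes asparagine and carries the first of the printed sites, was at 87.3, 79.2, 82.3 and 80.4 CPM in Old_CP2. It was at 75.5, 74.4, 79.9 and 79.1 CPM in Old and at 75.7, 76.4, 87.9 and 82.3 CPM in Young. In Old_CP2, 3 of 4 values were above all of Old, and the Young values overlapped both other groups. For Asns the log2 fold change was 0.09 ± 0.05 (SE) in Old_CP2 against Old (-0.02 to 0.21, edgeR adjusted p = 0.826), so that its interval ended at 1.15-fold. It was -0.06 in Old against Young and 0.03 in Old_CP2 against Young.

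Psat1 (ENSMUSG00000024640, chromosome 19, 15904678 to 15947337), an enzyme of serine synthesis, was at 102.5, 115.9, 104.7 and 116.2 CPM in Old_CP2, at 121.9, 113.7, 112.1 and 103.8 CPM in Old, and at 103.9, 100.5, 100.4 and 113.5 CPM in Young. The groups overlapped, and the log2 fold change was -0.04 in Old_CP2 against Old (-0.17 to 0.09, edgeR adjusted p = 0.932), 0.11 in Old against Young (-0.02 to 0.24, adjusted p = 0.329) and 0.07 in Old_CP2 against Young.

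Shmt2 and Mthfd2 encode mitochondrial enzymes that take the one-carbon unit of serine and oxidise it. Shmt2 (ENSMUSG00000025403, chromosome 10, 127517123 to 127522444) was at 14.0, 14.6, 13.5 and 14.9 CPM in Old_CP2, at 15.2, 13.7, 13.9 and 14.8 CPM in Old, and at 15.9, 14.5, 15.2 and 14.999 CPM in Young. Its log2 fold change was -0.02 in Old_CP2 against Old (-0.15 to 0.11), and above 0 without Old 7 (0.0050) or Old_CP2 13 (0.0039). In Old_CP2 against Young it was -0.09 (-0.22 to 0.03, edgeR adjusted p = 0.381), the smallest adjusted p of the 10 in that comparison. Mthfd2 (ENSMUSG00000005667, chromosome 6, 83305691 to 83317606) was at 5.70, 5.98, 5.79 and 7.55 CPM in Old_CP2, at 6.61, 5.40, 5.62 and 6.22 CPM in Old, and at 6.13, 6.45, 6.62 and 5.74 CPM in Young. Old_CP2 15 alone stood above the rest. The log2 fold change in Old_CP2 against Old was 0.07 (-0.16 to 0.30, edgeR adjusted p = 0.933) with that library and -0.03 without it. In Old_CP2 against Young it was 0.0035, and below 0 without Young 1 (-0.0034), Young 5 (-0.03) or Old_CP2 15 (-0.09).

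Chac1 (ENSMUSG00000027313, chromosome 2, 119351229 to 119354381), an enzyme that breaks down glutathione and carries the second printed site, was at 4.92, 5.31, 5.19 and 5.75 CPM in Old_CP2, at 4.98, 4.57, 4.87 and 5.15 CPM in Old, and at 5.59, 5.46, 5.62 and 5.64 CPM in Young. All 4 Old libraries were below all 4 Young libraries, and this was the only one of the 30 group comparisons of a member without overlap. Such separation of 4 from 4 values held for 3.44% of all genes in Old_CP2 against Old, for 13.3% in Old against Young and for 15.5% in Old_CP2 against Young, so 1 of 10 in Old against Young is a share near that of all genes. The log2 fold change was -0.19 ± 0.08 (SE) in Old against Young (-0.35 to -0.02), with an unadjusted p of 0.0299 and an edgeR adjusted p of 0.174. In Old_CP2 against Old it was 0.11 (-0.06 to 0.28, adjusted p = 0.848) and in Old_CP2 against Young -0.08 (-0.24 to 0.09).

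Sesn2 (ENSMUSG00000028893, chromosome 4, 132492032 to 132510501), a leucine-binding inhibitor of the growth kinase mTORC1, had 1.92-fold between its highest and lowest library, second to the 5.70-fold of Trib3 among the 10. It was at 14.3, 14.6, 14.2 and 18.6 CPM in Old_CP2, at 13.1, 14.4, 20.2 and 21.4 CPM in Old, and at 12.8, 19.0, 11.1 and 12.2 CPM in Young. The libraries Old_CP2 15, Old 9, Old 10 and Young 3 were at 18.6 CPM or above and the other 8 at 14.6 CPM or below, and each group held at least 1 of the high libraries. The log2 fold change was -0.16 in Old_CP2 against Old (-0.56 to 0.24, edgeR adjusted p = 0.910), 0.32 in Old against Young (-0.07 to 0.72, adjusted p = 0.342) and 0.16 in Old_CP2 against Young (-0.24 to 0.56).

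**Figure D2:**
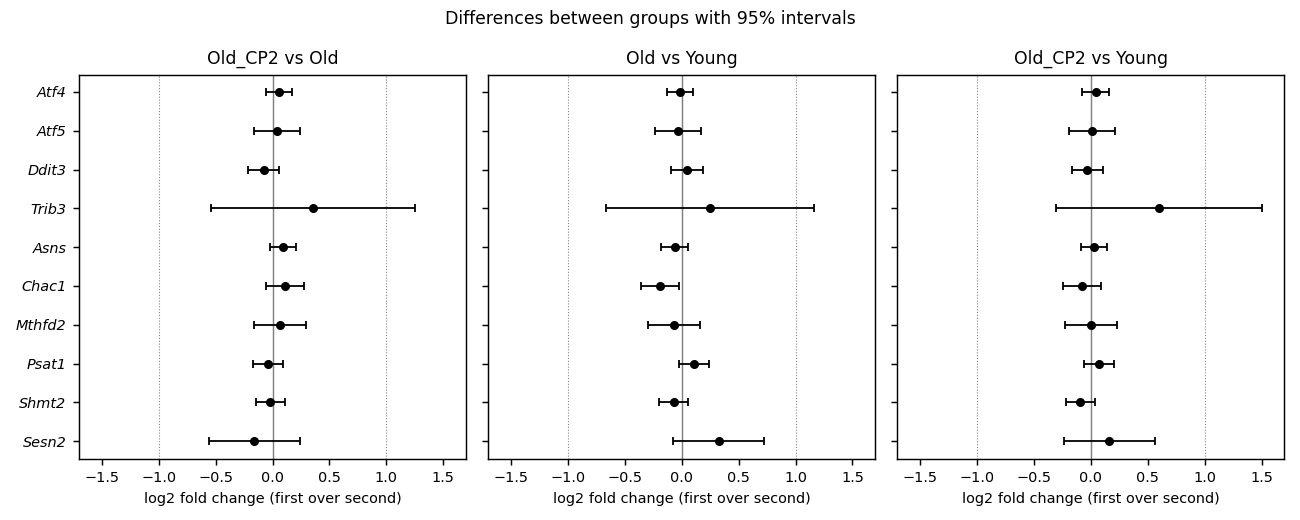
Log2 fold change (horizontal axis) of each of the 10 transcripts in Old_CP2 against Old, Old against Young and Old_CP2 against Young, with 95% intervals from the edgeR fit as bars and dotted lines at 2-fold. Only the interval of Trib3 reaches beyond a dotted line, and only that of Chac1 in Old against Young leaves out 0.

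These intervals set how large a difference the data leave room for. In Old_CP2 against Old, the 95% interval lay within 1.5-fold in either direction for 9 of the 10 genes, Trib3 being the exception. In Old against Young it did so for 8, the exceptions being Trib3 and Sesn2, and in Old_CP2 against Young for 9, again without Trib3. Within 2-fold the count was 9 in each comparison. The fitted folds ran from 0.895 to 1.28 in Old_CP2 against Old, from 0.878 to 1.25 in Old against Young and from 0.939 to 1.52 in Old_CP2 against Young. These intervals hold for the fit without covariates. With a covariate of the astrocyte markers, whose values lie higher in all 4 Old libraries than in the other 8, the log2 fold changes in Old_CP2 against Old were 1.87 for Trib3, 0.39 for Atf5, 0.39 for Mthfd2 and 0.26 for Chac1, and those in Old against Young were -1.75 for Trib3, -0.46 for Atf5, -0.46 for Mthfd2 and -0.38 for Chac1. None was called by edgeR, and the smallest adjusted p among these 8 values was 0.342. An adjusted p that misses the threshold does not show that the groups are alike.

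Levels between genes were compared with the deposited RPKM values, which are per length of the gene model. Over the 12 libraries Atf4 was highest at 37.7 ± 2.22 RPKM (SD), above 94.8% of the genes tested. Asns followed at 24.1 ± 1.73 RPKM and Psat1 at 21.2 ± 1.60 RPKM, whose ranges overlap, with Asns the higher in 11 of 12 libraries. Ddit3 was at 10.2 ± 0.728 RPKM, Atf5 at 6.84 ± 0.710 RPKM and Shmt2 at 5.22 ± 0.289 RPKM, and in these each range lay apart from its neighbours in the order, apart from Shmt2 and the next gene, Sesn2, at 3.68 ± 0.824 RPKM. Sesn2, Chac1 at 2.65 ± 0.220 RPKM and Mthfd2 at 1.86 ± 0.212 RPKM formed a run of neighbours with overlapping ranges. Trib3 was lowest at 0.263 ± 0.118 RPKM, above 17.5% of genes. This RPKM scale has no TMM factor, and its values do not follow from the library totals given above. On it, all 4 Old_CP2 libraries were above all 4 Old libraries in Atf4, at 38.3 to 41.5 RPKM in Old_CP2 and 35.4 to 38.1 RPKM in Old, and in Asns, at 24.4 to 27.0 RPKM in Old_CP2 and 21.3 to 24.2 RPKM in Old. The scale moved genes in general the same way. RPKM values of Old_CP2 and Old did not overlap for 6.23% of the 22553 genes, 1240 of them higher and 166 lower in Old_CP2, and the median gene was 0.07 higher on the log2 scale. Without overlap in RPKM were also 11.7% of genes in Old against Young, with Chac1 as the 1 member, and 18.6% in Old_CP2 against Young, with 0 members. No test was run on RPKM, and in normalised CPM the Old_CP2 and Old values of Atf4 and Asns overlapped.

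Paralogs of the scarcer members were more abundant per length, with Sesn1 at 13.8 RPKM and Sesn3 at 16.5 RPKM beside Sesn2, Trib1 at 2.117 RPKM and Trib2 at 8.15 RPKM beside Trib3, and Chac2 at 5.35 RPKM beside Chac1.

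**Figure D3:**
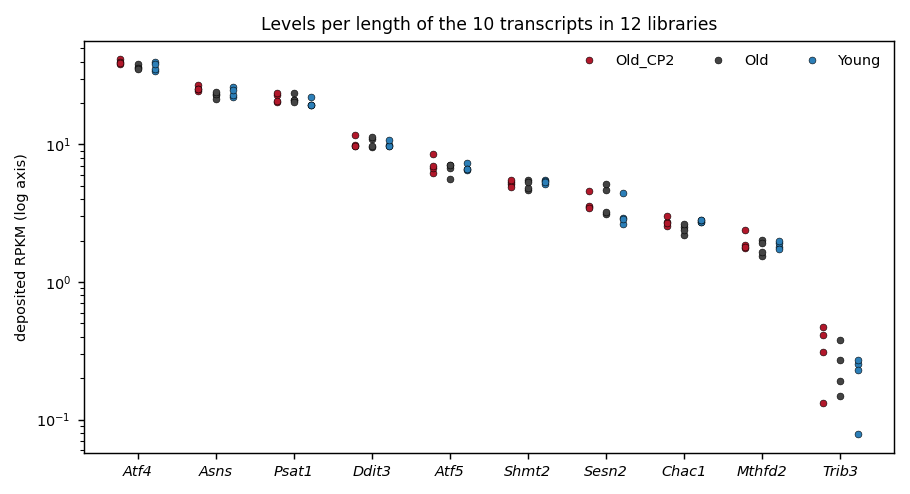
Deposited RPKM (log axis) of the 10 transcripts in each of the 12 libraries, ordered by mean, with Old_CP2, Old and Young as separate columns of points. The order runs from Atf4 at 37.7 RPKM to Trib3 at 0.263 RPKM, and the spread between genes is far wider than that between groups.

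Further genes of the pathway were read from 7 lists around the 10 genes. In Old_CP2 against Old, edgeR and limma voom called 0 genes of every list, and DESeq2 called 2, Mthfd1l higher and Cbs lower. At an unadjusted p under 0.05 stood 1 of 16 genes that control eIF2, 1 of 9 other ATF4 pathway regulators, 2 of 9 amino acid transporters, 0 of 12 aminoacyl-tRNA synthetases, 3 of 12 genes of serine, one-carbon and amino acid synthesis, 1 of 12 mitochondrial chaperones and proteases and 0 of 5 paralogs. That makes 8 of 75, or 10.7%, where 6.31% of all genes had such a p. The medians ran from -0.08 in serine, one-carbon and amino acid synthesis to 0.11 in amino acid transporters on the log2 scale. Nearest to the threshold was Mthfd1l, the mitochondrial enzyme that releases formate at the end of the one-carbon route, at 16.3 ± 1.15 CPM in Old_CP2 and 12.7 ± 0.997 CPM in Old (log2 fold change 0.36 ± 0.07 SE, edgeR adjusted p = 0.151). Cbs, which starts the conversion of homocysteine to cysteine, was at 25.5 ± 0.994 CPM in Old_CP2 and 29.6 ± 1.06 CPM in Old (-0.22, adjusted p = 0.212). The cystine importer Slc7a11 was at 60.7 ± 7.35 CPM and 79.6 ± 4.83 CPM in the same order (-0.39, adjusted p = 0.536). Of the 9 amino acid transporters, however, 6 had a log2 fold change above 0 and 3 below. Slc7a1 lay higher, at 45.6 ± 0.940 CPM in Old_CP2 and 41.6 ± 1.30 CPM in Old. The astrocyte markers, 10 of 10 with a log2 fold change below 0 in this comparison, 6 of them at an unadjusted p under 0.05 and 0 called, lay lower in Old_CP2 beside these values, and their part in them was not tested.

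The stress factor gene Atf3 was at 1.56 ± 0.527 CPM in Old_CP2 and 0.841 ± 0.109 CPM in Old (0.90 on the log2 scale, edgeR adjusted p = 0.695). Hspd1, the mitochondrial chaperonin and a classical readout of the mitochondrial unfolded protein response, was at 122.4 ± 1.23 CPM in Old_CP2 and 115.0 ± 3.91 CPM in Old (0.09, edgeR adjusted p = 0.730). Of the 12 mitochondrial chaperones and proteases, however, 4 had a log2 fold change above 0 and 8 below, with a median of -0.03. The secreted mitochondrial stress signal Gdf15 had 4 to 10 counts per library in Old_CP2 and 6 to 17 in Old (-0.87 ± 0.74 SE on the log2 scale, edgeR adjusted p = 0.879). Fgf21, the other such signal, had 0 to 7 counts in Old_CP2 and 0 to 1 in Old, did not pass the filter on low counts and was not tested.

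Between Old and Young, 3 genes of these lists were called by edgeR, and the same 3 by limma voom and by DESeq2, which added Slc7a1 (lower) and Mthfd2l (higher). The edgeR calls are 4% of the 75 genes tested in the 7 lists, against 6.7% of all genes, so the lists held no more calls than genes in general. Impact, an inhibitor of the amino acid sensing kinase GCN2, rose to 325.1 ± 16.5 CPM in Old, against 267.0 ± 22.6 CPM in Young (log2 fold change 0.28 ± 0.06 SE, edgeR adjusted p = 0.0149), and Ppp1r15a, the stress-induced partner of the phosphatase that restores eIF2, to 13.004 ± 1.09 CPM, against 10.514 ± 0.503 CPM (0.31 ± 0.08, adjusted p = 0.0366). They were the 2 called of 16 genes that control eIF2. Pycr1, a mitochondrial enzyme of proline synthesis, fell to 2.04 ± 0.344 CPM in Old, against 3.07 ± 0.540 CPM in Young (-0.59 ± 0.15, adjusted p = 0.0314), as the 1 called of 12 in its list. The call of Ppp1r15a ended without Young 1, Young 3, Young 4, Young 5, Old 7 or Old 9, with an adjusted p of 0.0608 to 0.0875, and that of Pycr1 without Young 1, Young 4, Young 5, Old 7 or Old 9 (0.0527 to 0.0792). With a covariate of the choroid plexus markers, all 3 calls ended at log2 fold changes of 0.31 for Impact (adjusted p = 0.0659), 0.25 for Ppp1r15a (0.251) and -0.48 for Pycr1 (0.221), with larger standard errors. With a covariate of the astrocyte markers, all 3 ended at 0.13 for Impact (0.866), 0.49 for Ppp1r15a (0.376) and -0.34 for Pycr1 (0.871). The values of each covariate separate Young from Old, so these fits can hardly tell the markers and the groups apart. Fitting only the libraries of Old and Young ended the calls of Ppp1r15a (0.0501) and Pycr1 (0.0672).

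Between Old_CP2 and Young, 5 were called by edgeR, and the same 5 by limma voom and by DESeq2, which added Eif2b2 (lower). The edgeR calls are 6.67% of the 75 genes, against 7.57% of all genes, again a share no higher than that of genes in general. Impact rose to 344.3 ± 8.50 CPM in Old_CP2, against 267.0 ± 22.6 CPM in Young (0.37 ± 0.06, edgeR adjusted p = 0.00352), and Mthfd1l to 16.3 ± 1.15 CPM, against 12.6 ± 0.696 CPM (0.37 ± 0.07, adjusted p = 0.00971). Slc38a2, an importer of neutral amino acids, rose to 161.4 ± 15.2 CPM in Old_CP2, against 122.5 ± 15.8 CPM in Young (0.40 ± 0.09, adjusted p = 0.0162). Atf3 rose to 1.56 ± 0.527 CPM, against 0.573 ± 0.256 CPM (1.45 ± 0.34, adjusted p = 0.0216), and Pycr1 fell to 1.74 ± 0.0797 CPM, against 3.07 ± 0.540 CPM (-0.82 ± 0.15, adjusted p = 0.00598). Immediate early genes, the transcripts that neurons raise within minutes of activity, summed to 415 to 896 CPM in Old_CP2 and 199 to 490 CPM in Young, with 9 of 10 at an unadjusted p under 0.05 and 0 called. Atf3 is itself induced in that way, and the part of this difference in its call was not tested. The call of Atf3 ended without Old_CP2 11 (adjusted p = 0.0619) or Old_CP2 12 (0.0637) and that of Slc38a2 without Old_CP2 11 (0.0553). With the choroid plexus covariate, whose values separate Young from Old_CP2, the calls of Atf3 (adjusted p = 0.0982), Slc38a2 (0.119) and Pycr1 (0.109) ended and those of Impact (0.0336) and Mthfd1l (0.0166) did not. The log2 fold changes of the 3 that ended were then 1.56 for Atf3, 0.39 for Slc38a2 and -0.68 for Pycr1, with larger standard errors.

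**Figure D4:**
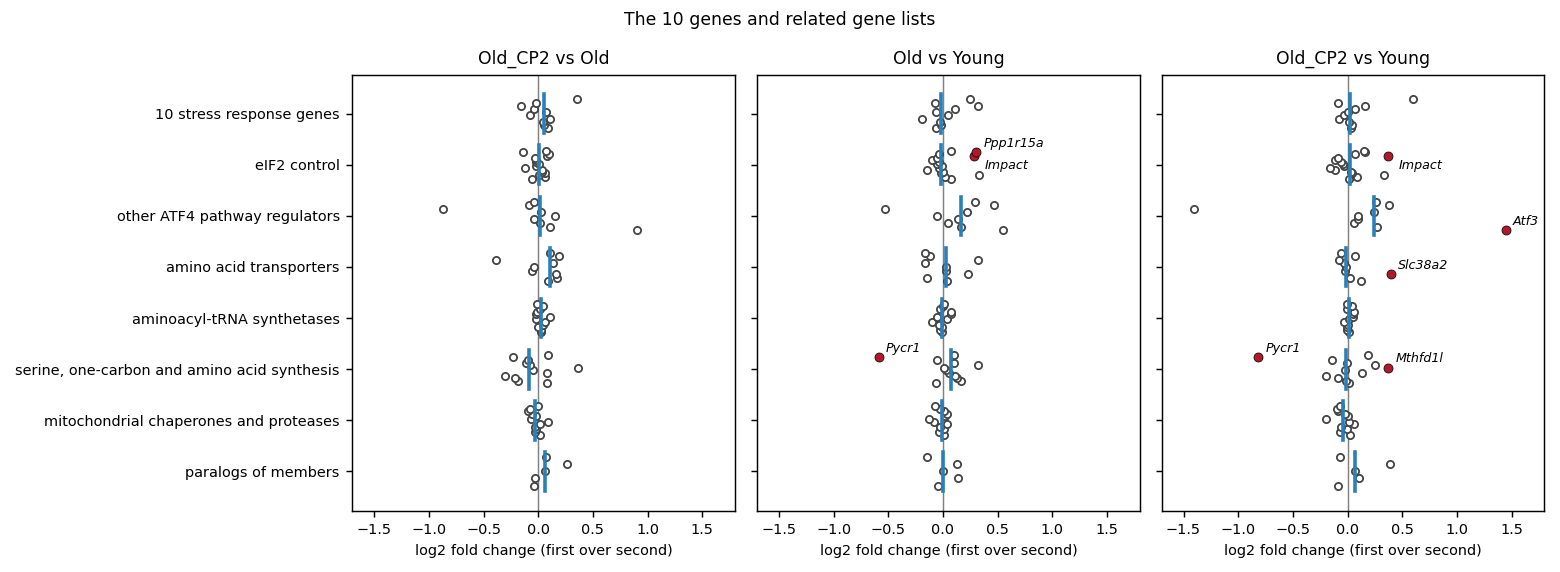
Log2 fold change (horizontal axis) of each gene of the 10 and of 7 related lists (rows) in the 3 comparisons. Filled and named points were called by edgeR at an adjusted p under 0.05, open points were not, and a vertical blue line marks each list's median. No point is filled in Old_CP2 against Old, 3 are in Old against Young and 5 in Old_CP2 against Young.

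Finally, the 10 transcripts were compared with each other within groups, as deviations of log2(CPM + 0.5) from the group mean in 12 libraries. Of the 45 pairs, 28 had a Pearson r above 0 and the median r was 0.26. The pair with the highest r was Ddit3 with Chac1 (r = 0.81, Spearman's rho = 0.80, exact two-sided permutation within groups p = 0.00969 and 0.0148, adjusted over the 45 pairs 0.233 and 0.285), and r was 0.65 without the 2 libraries farthest from the median of Ddit3. The lowest was Trib3 with Asns (r = -0.73, rho = -0.55, exact permutation p = 0.0167 and 0.0751, adjusted 0.233 and 0.422), with an r of -0.25 without its 2 farthest libraries, on which it rests. In all, 8 pairs had a p under 0.05 and 0 passed after adjustment. Pairs with r below -0.5 numbered 4, among them those of Atf4 with Trib3 (r = -0.69), Sesn2 (-0.56) and Chac1 (-0.53). Atf4 had an r above 0 only with Asns (0.46) and Psat1 (0.10). Pairs with r above 0.5 numbered 12, and 6 without Old_CP2 15. That library was the highest of the 12 in 5 of the 10 genes and the highest of its group in 8. The same count was not made over all genes, so it cannot be read as particular to these 10. It also had the highest summed markers of midbrain and hindbrain neurons of its group, at 70.0 CPM against 18.3 to 36.5 CPM in the others. Its summed oligodendrocyte markers, at 6153 CPM, endothelial markers, at 182.9 CPM, and astrocyte markers, at 2156 CPM, were the highest of the group too. Its microglia markers, at 323 CPM, and immediate early genes, at 415 CPM, were the lowest. The part of these in its high values was not tested.

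**Figure D5:**
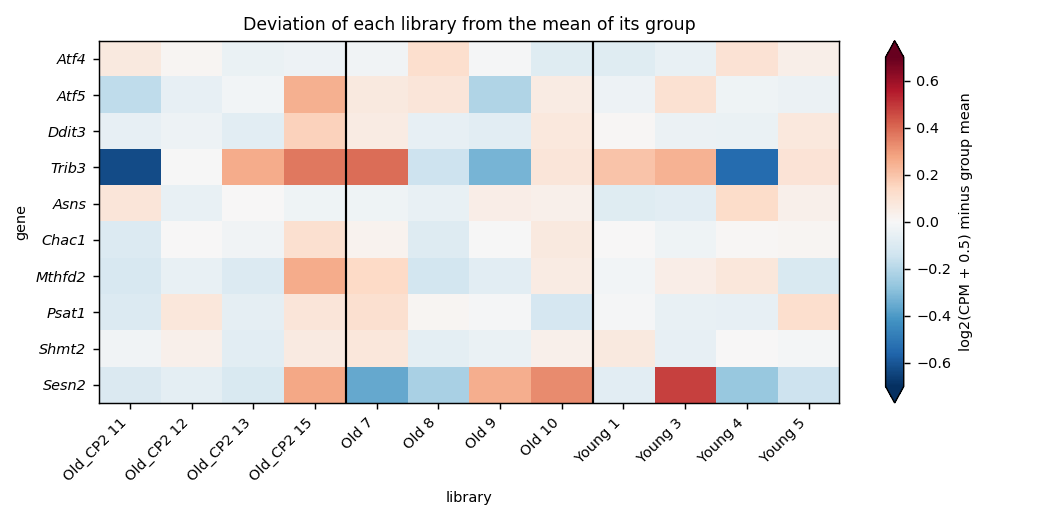
Deviation of log2(CPM + 0.5) from the group mean (colour scale, red above and blue below) for the 10 transcripts (rows) in the 12 libraries (columns, with Old_CP2, Old and Young set apart by black lines). Old_CP2 15 is red or near white in every row, and the rows of Trib3 and Sesn2 hold the deepest colours.

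Over all 12 libraries, the named gene whose log2 CPM had the highest Pearson correlation with each member, among 13897 or 13898 genes with a mean of at least 1 CPM, was found as a description. It was Tmem50a for Atf4 (r = 0.91), Ube2d1 for Atf5 (0.92), Echs1 for Ddit3 (0.90), Lrmp for Trib3 (0.87), Ahcy for Asns (0.86), Gdpd2 for Chac1 (0.90), Elovl6 for Mthfd2 (0.87), Sbds for Psat1 (0.91), Alpk2 for Shmt2 (0.93) and Dtx1 for Sesn2 (0.90). In none of these was the nearest gene another of the 10. Of the lists above, Eif4ebp1, an ATF4 target that restrains translation, was the second nearest to Asns (r = 0.83). It was picked out after its value was seen. The highest r among so many genes over 12 libraries is large by selection alone, and it runs across groups that differ in make-up.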

How the data were processed

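Per the labels' protocols, total RNA of a frozen brain cross-section was made into libraries with TruSeq RNA v2, which does not mark strand. Per the submitters' processing notes, bcl2fastq, TopHat and featureCounts of Subread were used with mm10, and versions are not given in the sources used here. Per the file headers, the authors deposited 1 table with a count and an RPKM value for each gene and library. The deposited counts were whole and unscaled and were used for every test. The deposited RPKM values, as made by the authors, were used to compare levels between genes and, untested, the overlap of groups on that scale.

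The tests used edgeR 4.0.16 (R 4.3.3), with a single model of the 3 groups on the 12 libraries, filterByExpr, TMM factors, a quasi-likelihood F test and Benjamini-Hochberg adjustment over 22553 genes. Called genes are those with an adjusted p below 0.05. Intervals are at 95% and come from the standard error and the total degrees of freedom of that fit. Normalised CPM are CPM on the TMM-scaled library total. Limma 3.58.1 (voom) and DESeq2 1.42.0 were alternatives, beside size factors, no filter, 2 groups only, marker covariates and leaving out each library. The fit was also run on counts simulated with the same spread for every gene. Real genes differ in spread, so that run does not cover widely spread genes such as Trib3.

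The members and lists were chosen with earlier results of these data known. From each list, called genes (up to 4 by smallest p) were named, otherwise at most 2 by smallest p, by value. For each member the 3 nearest genes were found and the nearest is given, beside 1 further gene for Asns and the paralogs, Gdf15 and Fgf21, which were added after their values were seen. Promoters came from a RefSeq table (GRCm38.p6), in which 10 of 10 members matched. Replicate numbers differ between all libraries, so nothing was paired.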

Additional observations from a re-analysis of the deposited data

Results flagged for a closer look

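A library stood apart from the other 3 of its group, by Dixon's 95% limit on the gap to the nearest value over the range of the group, in 5 of the 30 sets of 4 values (10 genes in 3 groups). For independent, normally spread values about 1 in 20 sets would pass that limit. These sets share libraries and are not independent, and the same count was not made over all genes, so no excess can be read from it. In 3 of the 5 the library was Old_CP2 15, with Ddit3 at 23.2 CPM against 19.6 to 20.2 CPM in the others, Mthfd2 at 7.55 CPM against 5.70 to 5.98 CPM and Sesn2 at 18.6 CPM against 14.2 to 14.6 CPM. The other two were in Atf5, with Old 9 low at 13.9 CPM against 16.9 to 17.2 CPM and Young 3 high at 17.9 CPM against 16.1 to 16.2 CPM.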

How the results depend on the processing

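In all 15 alternatives per comparison, 0 of the 10 genes were called. The smallest adjusted p of a member under any of them was 0.404 in Old_CP2 against Old, 0.0938 in Old against Young and 0.223 in Old_CP2 against Young. Genes called in Old_CP2 against Old numbered 10, and 17 with no filter on low counts, 108 with DESeq2, 2 with the astrocyte covariate and 6 to 38 without single libraries (6 without Old 9, 38 without Old_CP2 15). In Old against Young they numbered 1511, and 2474 with DESeq2, 234 with the choroid plexus covariate (185 higher, 49 lower), 10 with the astrocyte covariate and 855 to 1258 without single libraries (855 without Young 4, 934 without Old 7, 952 without Old 9, 971 without Young 5). In Old_CP2 against Young they numbered 1707, and 2652 with DESeq2, 290 with the choroid plexus covariate and 827 to 1590 without single libraries (827 without Old_CP2 11, 1036 without Young 4, 1043 without Old_CP2 12, 1050 without Young 1). The cause was not tested. No paired analysis was possible because the replicate numbers of all 12 libraries differ.

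Of 450 member values, 36 turned in sign, none of them called. In Old_CP2 against Old the astrocyte covariate, whose values lie higher in every Old library than in any other, gave log2 fold changes of -0.065 for Atf4, 0.060 for Ddit3, -0.030 for Asns, 0.053 for Psat1, 0.034 for Shmt2 and 0.31 for Sesn2. Larger moves that kept their sign came from the same covariate, at 1.87 for Trib3, 0.39 for Atf5 and 0.39 for Mthfd2, with -0.46 for Atf5 and -0.46 for Mthfd2 in Old against Young. In Old against Young it turned the sign of others, with 0.14 for Atf4, -0.13 for Ddit3, -1.75 for Trib3, 0.088 for Asns, -0.0071 for Psat1 and -0.25 for Sesn2, and the choroid plexus covariate gave 0.027 for Atf5. In Old_CP2 against Young the astrocyte covariate gave -0.076 for Atf5 and -0.078 for Mthfd2, the choroid plexus covariate -0.0046 for Asns and -0.049 for Mthfd2, and voom -0.0020 for Atf5 and -0.010 for Mthfd2. Without single libraries the values ran from -0.050 to 0.096 for Atf5, from -0.033 to 0.12 for Mthfd2 and from -0.047 to 0.0050 for Shmt2 in Old_CP2 against Old, from -0.047 to 0.027 for Atf4, from -0.049 to 0.047 for Atf5 and from -0.021 to 0.43 for Trib3 in Old against Young, and from -0.073 to 0.073 for Atf5, from -0.081 to 0.00086 for Ddit3 and from -0.092 to 0.047 for Mthfd2 in Old_CP2 against Young. Trib3 had few counts, at 16 to 96 per library, and spread widely within groups. Its SD was 44.3% of the mean CPM in Old_CP2, 38.9% in Old and 42.6% in Young. The part of depth in this spread was not tested.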

Other observations

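Summed over the 10 genes, the level was 341 to 367 CPM in Old_CP2, 344 to 354 CPM in Old and 332 to 354 CPM in Young, a sum that rests mostly on Psat1, Asns and Atf4. The 12 aminoacyl-tRNA synthetase genes, whose products load tRNA with amino acids, summed to 1084 to 1111 CPM in Old_CP2, 1077 to 1099 CPM in Old and 1068 to 1096 CPM in Young, and 0 of the 12 were called in each of the 3 comparisons by edgeR, DESeq2 and limma voom, with 0 at an unadjusted p under 0.05 in Old_CP2 against Old, 1 in Old against Young and 0 in Old_CP2 against Young. The core TGATGNAA was found in the promoter window of 3 of the 8 of them with a promoter in the table, against 3.91% of all genes there. The same search gave 3 of 9 other ATF4 pathway regulators, 1 of 6 amino acid transporters and 1 of 10 genes of serine, one-carbon and amino acid synthesis. It gave 0 of 12 genes that control eIF2, 0 of 9 mitochondrial chaperones and proteases and 0 of 4 paralogs. These shares were not tested.

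Deviations of the 10 genes within groups were also set against 12 marker lists, and of these 120 relations 11 had an exact permutation p under 0.05 and 0 passed adjustment, the smallest adjusted p being 0.391.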
